A study of Mus musculus with 8 samples.

Results

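The 7 genes described here encode the subunits of the NMDA receptor: Grin1, Grin2a, Grin2b, Grin2c, Grin2d, Grin3a and Grin3b. They were taken by gene symbol from the 54232 features of a single-nucleus RNA data set, and all 7 were found. Nuclei came from a 2 mm cube of forebrain next to the lesion site of male Swiss Webster mice aged 10 weeks. There were 8 libraries, with 2 in each of 4 surgery groups: control surgery, BCAS, TBI, and both surgeries together (BCAS+TBI). TBI is traumatic brain injury. BCAS stands in the labels as an abbreviation only, and the title of the study ties it to cerebral hypoperfusion. The interval between surgery and tissue collection, and the number of mice behind each cube, are not given in the sources used here. Libraries of 1 group are called biological replicates, and where 2 libraries do not stem from separate mice the p-values below measure only the spread between samples.

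The NMDA receptor is a glutamate-gated cation channel that is permeable to calcium and blocked by magnesium at rest. Each receptor is a tetramer that needs the GluN1 subunit, the product of Grin1, together with GluN2 subunits (Grin2a to Grin2d), which bind glutamate and set how fast the channel closes, or with GluN3 subunits (Grin3a, Grin3b), which bind glycine and lower calcium entry. In the adult forebrain GluN2A and GluN2B prevail in principal neurons, GluN2C is best known from the cerebellum, thalamus and astrocytes, and GluN2D from interneurons and the diencephalon.

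Of the 53390 barcodes in the files, 48468 passed the filters (at least 500 UMIs, at least 300 genes, at most 5% mitochondrial UMIs), where a UMI is a counted RNA molecule. Libraries held 6191 to 7882 barcodes, against a stated capture target of about 3000, and 289 barcode sequences occurred in more than 1 library. Nuclei were assigned to classes by marker genes that include no NMDA receptor gene. Barcodes with markers of 2 classes beyond what 1 class explains, 32.1% of those kept, were set aside as mixtures, and 31507 nuclei (65.0%) remained. Class names mean that nuclei resembled that cell type by markers only. Of 62 marker genes kept as checks of a class, 57 were highest in their own class. Prox1, a check for Vip interneurons, was also used to assign dentate granule neurons, so it is not an independent check. Pmch, a gene of hypothalamic neurons, had the highest fold in the layer 5 cortical class, so that class is not purely what its name says. Total UMIs per library ran from 28118725 to 56135192 and the median per barcode from 3275.5 to 6409. The libraries fell into 2 sets of 4 at the largest gap in total UMIs, each set with 1 library of every group. Set 1 (control 1, BCAS 1, TBI 1 and BCAS+TBI 2) had at most 33363564 UMIs per library and set 2 at least 42651388. These sets are not groups of the study, but several member genes moved with them, and the values are given beside the results they touch.

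The 7 genes differ in size, which matters for levels in nuclei. In the GENCODE annotation of GRCm38, Grin2a spans 427.7 kb (chr16:9567898-9995560, minus strand), Grin2b 460.3 kb (chr6:135713233-136173511, minus strand) and Grin3a 184 kb (chr4:49661611-49845744, minus strand). Grin1 spans only 28.0 kb (chr2:25291181-25319187, minus strand), Grin2c 18.1 kb (chr11:115249169-115267243, minus strand), Grin2d 46.5 kb (chr7:45831883-45878378, minus strand) and Grin3b 6.48 kb (chr10:79970715-79977190, plus strand). The sources used here do not say whether reads in introns were counted. Levels are therefore given as CPM, the UMIs of a gene divided by all UMIs of the class in that library, on the usual CPM scale, and are compared between classes for 1 gene and not between genes. Grin1 overlaps the antisense gene Grin1os, to which the files gave 1289 UMIs against 61840 for Grin1 in neurons (2.08%).

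Promoter sequence was at hand for 4 of the 7 genes (RefSeq, GRCm38.p6). Shown are the 250 bases before the start of Grin1, whose RNA was found in every neuron class, and of Grin2c, whose RNA was high in astrocytes and thalamic neurons only among the 21 classes, because these were the members with the broadest and the narrowest patterns among them. Capitals mark E-boxes (CACGTG) in the first and GC boxes (GGGCGG, either strand) in the second, and the last 2 GC boxes overlap by their end bases.
Grin1, chr2:25319188-25319437, minus strand: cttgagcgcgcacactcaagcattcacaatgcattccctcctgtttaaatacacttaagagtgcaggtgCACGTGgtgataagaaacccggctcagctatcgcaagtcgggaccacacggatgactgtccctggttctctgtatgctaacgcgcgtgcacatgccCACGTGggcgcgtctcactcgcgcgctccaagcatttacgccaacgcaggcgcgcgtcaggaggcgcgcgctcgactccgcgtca
Grin2c, chr11:115267244-115267493, minus strand: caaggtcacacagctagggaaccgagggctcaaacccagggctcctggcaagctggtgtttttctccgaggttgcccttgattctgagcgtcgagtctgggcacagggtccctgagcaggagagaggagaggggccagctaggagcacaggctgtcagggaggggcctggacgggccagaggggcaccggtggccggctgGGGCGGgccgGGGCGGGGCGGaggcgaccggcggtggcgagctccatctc
The Grin1 stretch held 2 E-boxes, where 6.02% of 32851 mouse promoters of the same length hold at least 1, and 27 CpG dinucleotides, a number reached by 8.56% of them. The Grin2c stretch held 3 GC boxes, a motif found in 32.7% of promoters, and 15 CpG. Neither motif was in the windows of Grin2d (9 CpG) or Grin3b. The Grin2d window (chr7:45866682-45866931) lies inside the gene span given above and not before its start, so it is not like the windows shown. These matches describe letters in a window and no more.

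Grin1, which encodes the subunit every NMDA receptor needs, was present in all neuron classes and was low in glia. In the excitatory neuron family it stood at 371.3 and 367.1 CPM in the control libraries, 357.1 and 376.4 in BCAS, 366.7 and 374.1 in TBI, and 379.6 and 345.6 in BCAS+TBI. The mean was 367 CPM ± 11.2 (SD, n = 8, from 53699 UMIs), BCAS+TBI 2 was lowest, and the groups overlapped. The highest mean was in Drd2 striatal neurons, at 459 CPM ± 62.5, where control 1 had 527 and BCAS+TBI 2 had 327. Rorb mid-layer cortical neurons followed with 428 ± 41.1, upper-layer cortical neurons with 395 ± 15.7 and layer 6 corticothalamic neurons with 390, and no neighbours among the first 7 classes in the order differed in an exact sign-flip permutation test over the 8 libraries (adjusted p from 0.137 to 0.870). The next step down, from layer 5 cortical neurons (379 CPM) to Sst interneurons (336 CPM), did differ (adjusted exact permutation p = 0.0143, the smallest this test gave). Classes further apart among the first 7 did differ in part, since Drd2 neurons differed from 17 of the 20 other classes. Lamp5 interneurons had the lowest neuronal mean, 289 CPM ± 23.9. In astrocytes, oligodendrocyte precursors and oligodendrocytes Grin1 stood at 30.4, 49.2 and 28.5 CPM.

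**Figure D1:**
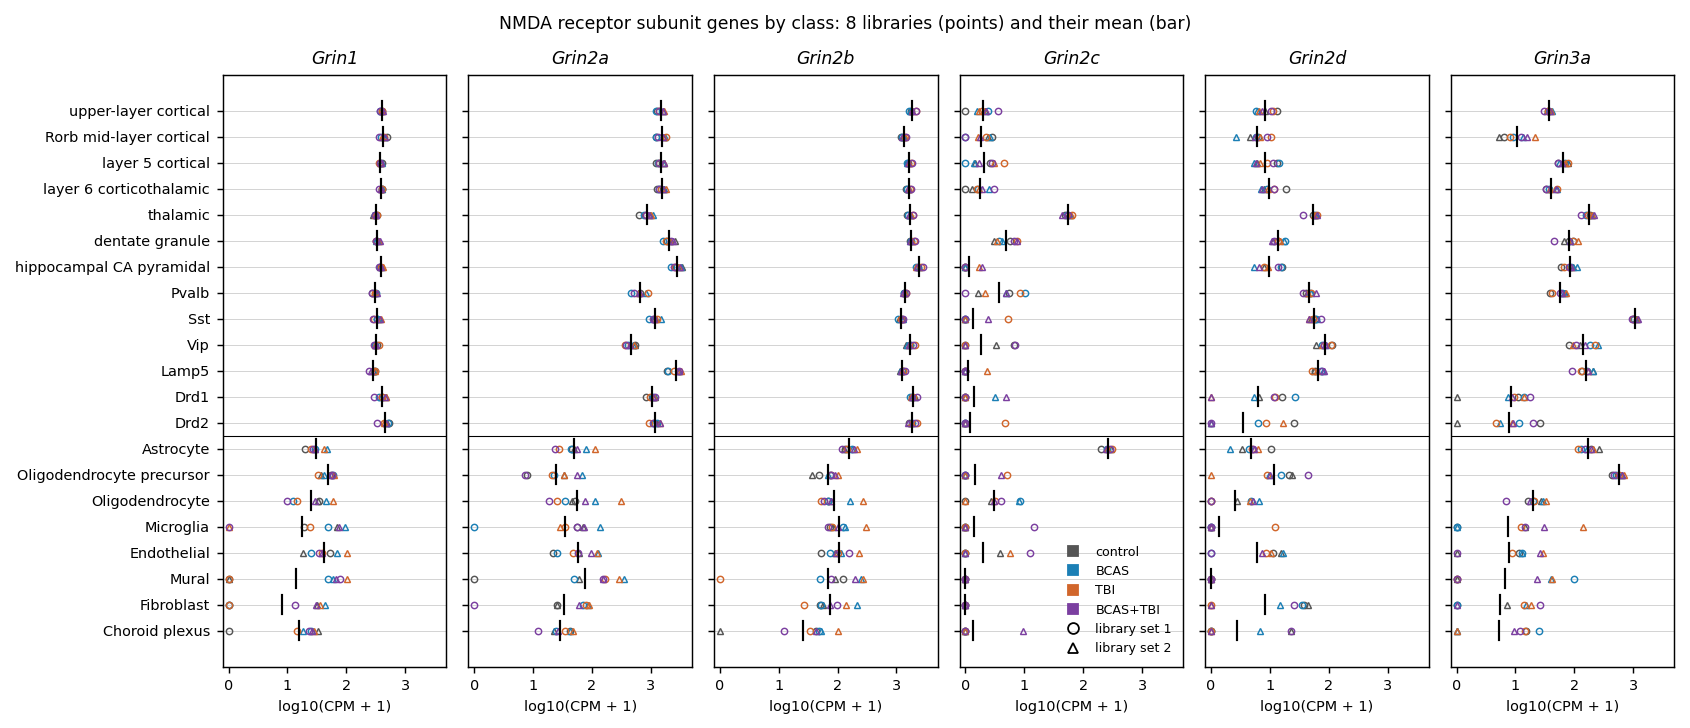
Level of 6 NMDA receptor subunit genes, as log10(CPM + 1) on the horizontal axis, in the 21 classes on the vertical axis; each point is 1 library, coloured by surgery group and shaped by library set, and bars are means of 8 libraries. Grin1, Grin2a and Grin2b are high in every neuron class above the line, Grin2c stands out in astrocytes and thalamic neurons, Grin2d in interneurons and thalamic neurons, and Grin3a in Sst interneurons and oligodendrocyte precursors.

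Grin2a and Grin2b, which encode the main glutamate-binding subunits of the forebrain, were highest in hippocampal CA pyramidal neurons, with 2859 CPM ± 418 for Grin2a and 2399 CPM ± 243 for Grin2b (SD, n = 8). Grin2a was almost as high in Lamp5 interneurons (2694 ± 510), and the 2 classes did not differ (adjusted exact permutation p = 0.362). By library, Lamp5 interneurons had 1918 and 2958 CPM of Grin2a in control, 1978 and 2911 in BCAS, 2483 and 3276 in TBI, and 2974 and 3053 in BCAS+TBI. Control 1 and BCAS 1, both of the shallower set, were lowest. Dentate granule neurons followed with 2091 CPM, then the cortical excitatory classes from 1541 (Rorb) to 1473 (upper-layer), whose neighbours in the order did not differ. Thalamic neurons had 879 CPM ± 145, Pvalb interneurons 659 ± 144 and Vip interneurons 459 ± 71.0. The range over neuron classes was narrower for Grin2b, from 1211 CPM ± 89.1 in Sst interneurons to the 2399 of CA pyramidal neurons. CA pyramidal neurons differed from the next class (adjusted exact permutation p = 0.0143). From Drd1 striatal neurons (1914 CPM) to layer 6 neurons (1607 CPM) no neighbours in the order differed. Classes further apart in this row did differ in part, since layer 6 neurons differed from 18 of the 20 other classes.

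The balance between both genes is shown by the Grin2a share, the percentage of Grin2a UMIs among Grin2a and Grin2b UMIs. Because UMIs were not scaled by transcript length, a share of one value is not a ratio of subunits, and shares are compared between classes only. Lamp5 interneurons had the highest share, 67.7% ± 4.96 (SD, n = 8), above each of the other 13 classes that could be measured. The libraries gave 59.6 and 71.7% in control, 61.4 and 71.0% in BCAS, 65.7 and 72.4% in TBI, and 71.3 and 68.9% in BCAS+TBI. Vip interneurons had the lowest share, 21.3% ± 4.13, with 24.0 and 26.7% in control, 19.6 and 24.3% in BCAS, 14.9 and 23.8% in TBI, and 21.0 and 16.4% in BCAS+TBI. No Vip value reached the lowest Lamp5 value, and interneuron classes lay at both ends of the order. CA pyramidal (54.2%), Rorb (53.6%) and dentate granule neurons (53.4%) did not differ from each other as neighbours, and upper-layer neurons (44.1%) were below layer 5 neurons (47.8%; adjusted exact permutation p = 0.0143). Striatal Drd2 and Drd1 neurons (39.5 and 35.9%), thalamic neurons (33.7%) and Pvalb interneurons (32.0%) lay lower. Of 91 pairs of classes, 78 differed in this share at an adjusted exact permutation p under 0.05.

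**Figure D2:**
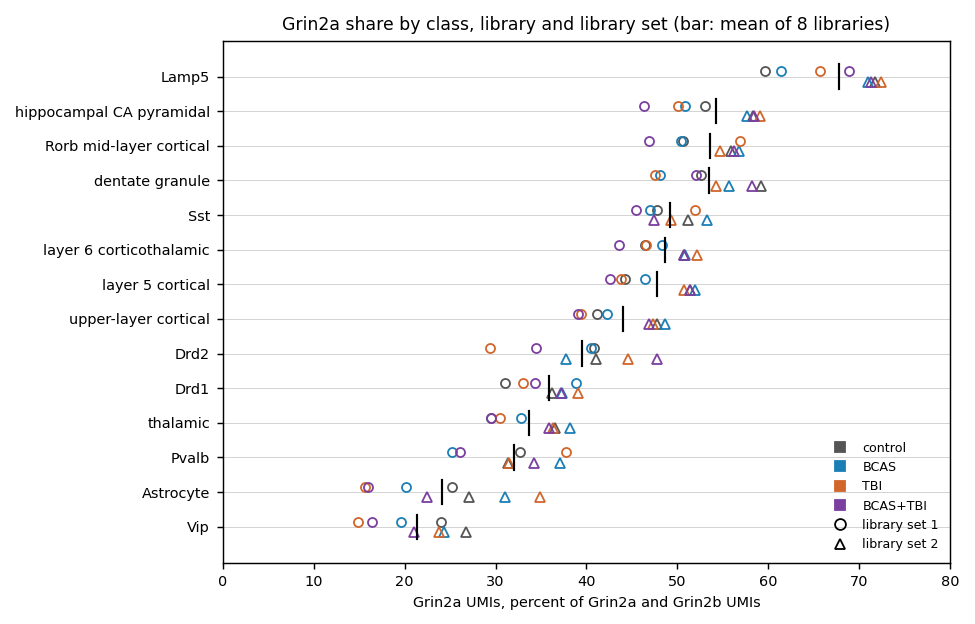
Grin2a UMIs as a percentage of Grin2a and Grin2b UMIs (horizontal axis) in 14 classes (vertical axis); each point is 1 library, colours are surgery groups, circles and triangles are library sets 1 and 2, and bars are means of 8 libraries. Lamp5 interneurons are at 59.6 to 72.4% and Vip interneurons at 14.9 to 26.7%, and in most neuron classes the circles lie to the left of the triangles.

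Tests between pairs of classes, with edgeR's quasi-likelihood test and the library as a term, gave the sizes of these differences. Between Lamp5 and Pvalb interneurons 3 of the 5 members tested differed, where 39.1% of all genes did, and all 3 were higher in Lamp5: Grin2a by 2.06 on the log2 scale ± 0.0857 (SE), Grin3a by 1.49 and Grin2d by 0.55. Grin2b gave -0.13 and was not called (edgeR adjusted p = 0.0945), but it was called as lower in Lamp5 in 7 alternatives: DESeq2 (-0.17), other size factors (-0.15), no filter on low counts (-0.24), at least 1000 UMIs (-0.18), a stricter gate (-0.16), and without TBI 1 (-0.16) or TBI 2 (-0.17). Between Pvalb and Sst interneurons 4 of 5 were called, with 36.1% of all genes. Grin2a was lower in Pvalb by a log2 difference of -0.85 and Grin3a by -4.19, while Grin1 gave -0.17 and Grin2b 0.19. The Grin1 call was lost with DESeq2, with no filter on low counts, with nuclei thinned to 1000 UMIs, with mixtures kept and without TBI 2. The Grin2b call was lost with thinned nuclei, without BCAS 1 and without control 2. Vip interneurons against Sst gave 4 of 5, against 29% of all genes: Grin2a (-1.30) and Grin3a (-2.83) were lower in Vip, and Grin2b (0.54) and Grin2d (0.66) were higher. Upper-layer against layer 6 corticothalamic neurons gave 1 of 5, Grin2b (0.23 ± 0.0396), where 43.2% of all genes were called. Dentate granule against CA pyramidal neurons gave 3 of 5, against 32.2% of all genes, with Grin2a (-0.50), Grin2b (-0.46) and Grin1 (-0.25) all lower in dentate granule neurons. The Grin1 call there was lost with nuclei thinned to 1000 UMIs. Between Drd1 and Drd2 striatal neurons none of 3 members passed the test in edgeR or DESeq2 (13.4% of all genes called in edgeR). The 95% intervals of those log2 differences were -0.39 to -0.0079 for Grin1, -0.31 to -0.0064 for Grin2a and -0.089 to 0.18 for Grin2b, and the first 2 had an unadjusted p under 0.05.

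**Figure D3:**
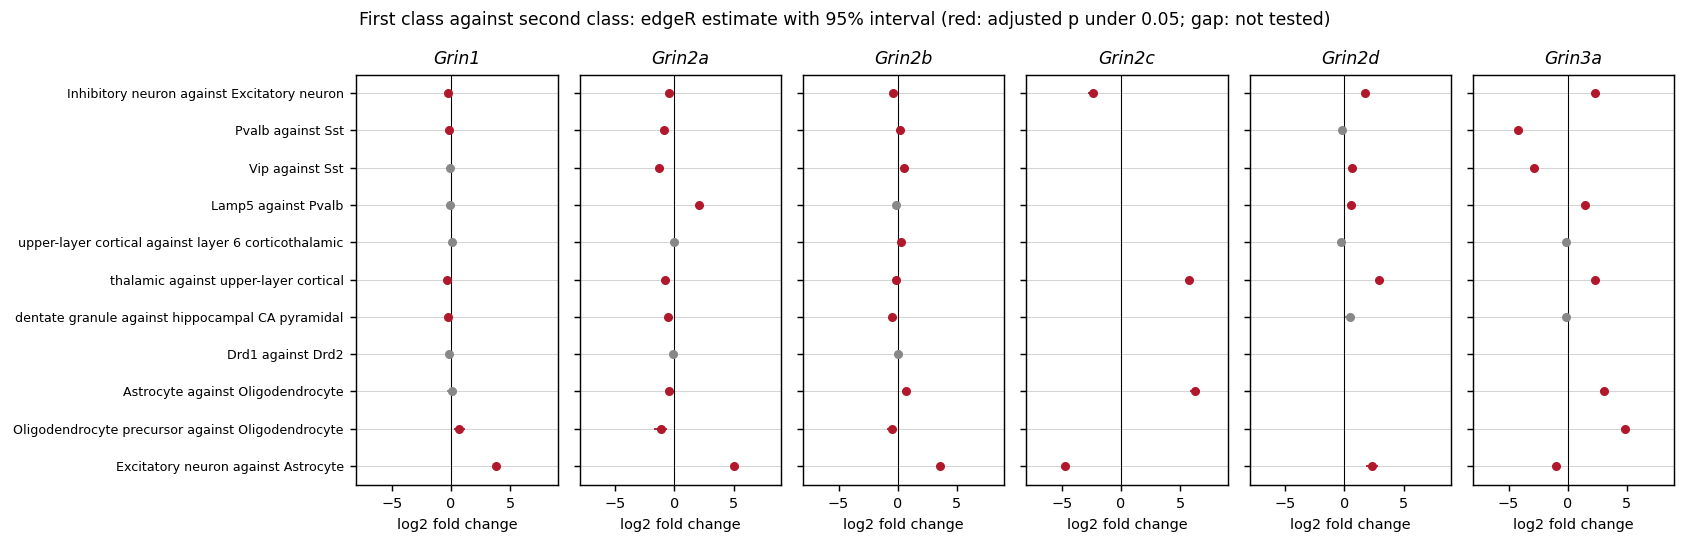
Log2 fold change (horizontal axis) of 6 member genes between 11 pairs of classes (vertical axis, first class against second), as edgeR estimates over 8 libraries with 95% intervals that are mostly narrower than the points; red marks an adjusted p under 0.05. The largest differences are those of Grin2c and Grin3a, for example 6.26 for Grin2c in astrocytes against oligodendrocytes and -4.19 for Grin3a in Pvalb against Sst interneurons.

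Grin2c, the subunit gene with the narrowest pattern, was highest in astrocytes. Astrocytes had 197.9 and 292.1 CPM in control, 249.7 and 268.6 in BCAS, 304.2 and 258.1 in TBI, and 241.7 and 284.0 in BCAS+TBI, with a mean of 262 CPM ± 33.6 (SD, n = 8, from 1464 UMIs). Control 1 was lowest and TBI 1 highest, and the groups overlapped. Thalamic neurons came second, at 54.0 CPM ± 7.03, and differed both from astrocytes and from the next class, dentate granule neurons at 4.21 CPM (adjusted exact permutation p = 0.0143 for each). Every other class had at most 4.21 CPM, with no UMI in mural cells, where 3 UMIs would have been 11.7 CPM, or in fibroblasts, where they would have been 4.2 CPM. Against upper-layer cortical neurons, thalamic neurons had more Grin2c by 5.71 on the log2 scale ± 0.173 (edgeR, SE), with 6 of 6 members called and 59.9% of all genes. Of these, Grin1 (-0.39), Grin2a (-0.80) and Grin2b (-0.17) were lower in thalamic neurons and Grin2d (2.95) was higher, and the Grin2b call was lost with nuclei thinned to 1000 UMIs. Against oligodendrocytes, astrocytes had more Grin2c by 6.26 ± 0.206, with 4 of 5 members called and 62.2% of all genes. Among the UMIs of the 4 Grin2 genes, Grin2c made up 55.0% ± 7.92 in astrocytes and 2.00% ± 0.200 in thalamic neurons. With each nucleus thinned to 1000 UMIs, 22.5% of astrocytes and 0.303% of oligodendrocytes had a Grin2c UMI (38.5 and 0.382% before thinning, at medians of 1996.5 and 1426 UMIs per nucleus; 157 astrocytes and 444 oligodendrocytes were too shallow to be thinned).

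Grin2d, whose subunit gives the slowest channel closing of the family, marked interneurons and thalamic neurons. Vip interneurons had the highest level, 85.9 CPM ± 17.2 (SD, n = 8, from 190 UMIs), with 112.5 and 59.6 CPM in control, 74.4 and 88.4 in BCAS, 106.5 and 75.8 in TBI, and 86.9 and 83.5 in BCAS+TBI. The lowest and the highest of these were both control libraries. Lamp5 interneurons followed with 66.8 CPM and differed from Vip (adjusted exact permutation p = 0.0143), then Sst (55.4), thalamic (54.7) and Pvalb neurons (45.3). The remaining classes had at most 19.1 CPM, in fibroblasts. Inhibitory against excitatory neurons gave a log2 difference of 1.75 ± 0.0731 for Grin2d (edgeR, SE), where all 6 members tested were called and 56.2% of all genes. Of the other 5 members, Grin3a was higher in inhibitory neurons (2.31) and Grin1 (-0.28), Grin2a (-0.49), Grin2b (-0.36) and Grin2c (-2.34) were lower. Grin2d made up 3.78% of Grin2 UMIs in Vip, 2.28% in Sst, 2.18% in Pvalb, 2.04% in thalamic and 1.68% in Lamp5 neurons.

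Grin3a, the glycine-binding subunit gene that lowers calcium entry, was highest in Sst interneurons and, among glia, in oligodendrocyte precursors. Sst interneurons had 1001 and 1122 CPM in control, 1028 and 1145 in BCAS, 980 and 1169 in TBI, and 1201 and 969 in BCAS+TBI, with a mean of 1077 CPM ± 92.4 (SD, n = 8, from 5959 UMIs). Oligodendrocyte precursors had 443.6 and 651.8, 509.7 and 622.5, 575.5 and 709.6, and 653.1 and 477.5 CPM in the same order, with a mean of 580 ± 95. In both classes the 4 libraries of set 1 were below the 4 of set 2, and the surgery groups overlapped. Sst interneurons differed from oligodendrocyte precursors, and these from the next class, thalamic neurons at 181 CPM (adjusted exact permutation p = 0.0143 for each). Thalamic neurons, astrocytes (176), Lamp5 (159) and Vip interneurons (151) did not differ as neighbours. Pvalb interneurons had 57.8 CPM, Rorb neurons 10.5 and both striatal classes under 10. Oligodendrocyte precursors exceeded oligodendrocytes by 4.81 on the log2 scale ± 0.137 (edgeR, SE). All 4 members tested were called in that pair, against 60.5% of all genes: Grin1 was also higher (0.70) and Grin2a (-1.16) and Grin2b (-0.50) were lower. The Grin2b call was lost with DESeq2, without nuclei of high UMI count, with thinned nuclei, and without BCAS 2, TBI 2 or control 2, and Grin1 turned to -0.58 with mixtures kept. Astrocytes exceeded oligodendrocytes in Grin3a by 3.04, and thalamic exceeded upper-layer neurons by 2.31. Of all member UMIs, Grin3a took 77.0% ± 3.57 in oligodendrocyte precursors, 28.0% ± 1.96 in Sst interneurons and 25.5% ± 5.52 in astrocytes, but 2.07% ± 0.185 in excitatory neurons. With nuclei thinned to 1000 UMIs, a Grin3a UMI was found in 60.1% of Sst interneurons, 40.4% of oligodendrocyte precursors and 13.3% of astrocytes, against 1.70% of oligodendrocytes (91.7, 68.1, 22.7 and 3.39% before thinning).

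Grin3b, the other GluN3 gene, was hardly detected. Its highest mean, 4.25 CPM in oligodendrocyte precursors, rested on 7 UMIs, and 3 of the 8 libraries had none there. Excitatory neurons had 76 UMIs in all, or 0.540 CPM ± 0.261. Microglia, endothelial and mural cells had none, where 3 UMIs would have been 5.88, 2.20 and 11.7 CPM. Of 210 pairs of classes 3 differed in Grin3b (adjusted exact permutation p under 0.05).

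Excitatory neurons against astrocytes gave 6 of 6 members called, against 68.5% of all genes, with log2 differences of 5.04 for Grin2a, 3.75 for Grin1, 3.57 for Grin2b and 2.30 for Grin2d. Grin2c (-4.76) and Grin3a (-1.04) were lower in excitatory neurons. Neuronal RNA in glial nuclei can be free RNA, so the glial levels were set beside Slc17a7, the vesicular glutamate transporter gene of cortical excitatory neurons. Excitatory neurons held 6.46 Grin2a UMIs per Slc17a7 UMI, while astrocytes held 1.08, oligodendrocytes 1.18 and oligodendrocyte precursors 1.01. For Grin2b the ratio was 6.99 in excitatory neurons, 3.29 in astrocytes, 1.55 in oligodendrocytes and 2.01 in oligodendrocyte precursors. Grin2c had 5.59 UMIs per Slc17a7 UMI in astrocytes and 0.0361 in excitatory neurons, and Grin3a had 17.01 in oligodendrocyte precursors, 3.65 in astrocytes and 0.322 in excitatory neurons. Grin2b was higher in astrocytes than in oligodendrocytes by 0.67 on the log2 scale. Grin2a was lower there (-0.46), a call that was lost with DESeq2, without nuclei of high UMI count, with thinned nuclei, and without BCAS+TBI 1 or TBI 2. In TBI 2 oligodendrocytes had 304.9 CPM of Grin2a against 18.0 to 110.0 in the other 7, and 122.0 CPM of Slc17a7 against 40.8 to 74.7. Keeping the mixed barcodes raised Grin2a from 51.7 to 339 CPM in astrocytes and from 77.8 to 724 CPM in oligodendrocytes, pooled over libraries, and turned the Grin1 and Grin2b differences between those classes to -0.99 and -0.86. It lowered Grin2c in astrocytes from 267 to 191 CPM and Grin3a in oligodendrocyte precursors from 604 to 434 CPM. The part of free or mixed RNA in the glial levels of Grin1, Grin2a and Grin2b was not tested.

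Grin2a and its share moved with the library set. In excitatory neurons the share was 44.4, 44.8, 43.0 and 42.6% in control 1, BCAS 1, TBI 1 and BCAS+TBI 2, and 50.9, 50.2, 49.3 and 50.3% in control 2, BCAS 2, TBI 2 and BCAS+TBI 1. The sets did not overlap in 7 of 13 neuron classes, and the mean was lower in set 1 in 13 of 13. Grin2a CPM was lower in set 1 without overlap in 5 of 13 classes, for example 1264 to 1455 against 1634 to 1694 CPM in excitatory neurons. Grin3a was lower without overlap in 4 of 13, while Grin2b was higher without overlap in 1 of 13 and Grin1 lower in 1 of 13. Grin2d was higher without overlap in 2 of 13, and its share of the Grin2 genes in 4 of 13. How many of all genes separated the sets in this way was not counted, so these counts do not set the members apart from other genes. The sets differ in total UMIs by definition, and they also differed in mitochondrial share (1.2 to 2.77% against 0.511 to 1.04% mitochondrial UMIs). At matched depth per nucleus the sets were also apart: among excitatory nuclei of 4000 to 8000 UMIs the share was 41.9 to 44.6% in set 1 and 49.7 to 54.1% in set 2, and among those of 8000 to 16000 UMIs it was 42.1 to 44.6% and 48.5 to 50.2%. The sets were defined from the data, and what else differs between them is not given in the sources used here.

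**Figure D4:**
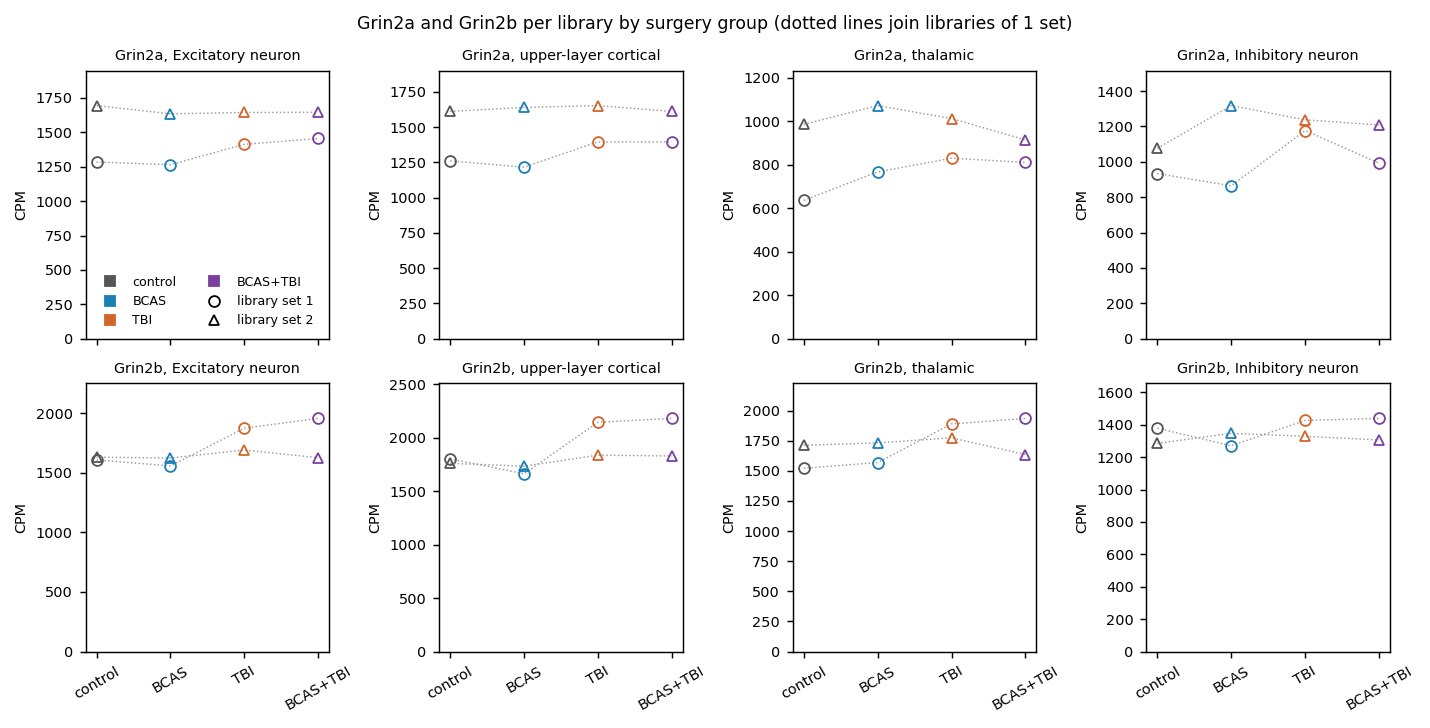
Grin2a (upper row) and Grin2b (lower row) in CPM on the vertical axis, by surgery group on the horizontal axis, in 4 classes; each point is 1 library, and dotted lines only join the libraries of 1 set. In excitatory neurons Grin2a lies between 1264 and 1455 CPM in set 1 and between 1634 and 1694 in set 2, and Grin2b is 1874 and 1957 CPM in the 2 set 1 libraries with TBI against 1557 to 1691 in the others.

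The question behind the surgery groups, as the title puts it, is whether hypoperfusion changes the outcome of TBI, and no difference of a member gene passed the test. The test was run in 22 classes and families with 8 contrasts. There, 90 pairs of a member and a class passed the filter on low counts, and not every class had such a pair. Grin2b in excitatory neurons had 1608 and 1632 CPM in control, 1557 and 1624 in BCAS, 1874 and 1691 in TBI, and 1626 and 1957 in BCAS+TBI. TBI 1 and BCAS+TBI 2, both of set 1, were above the rest, while BCAS+TBI 1 lay among the libraries without TBI. The log2 difference of TBI averaged over BCAS was 0.15 (95% interval -0.32 to 0.62). Grin2a in excitatory neurons, with 1284 and 1694, 1264 and 1634, 1412 and 1644, and 1645 and 1455 CPM in the same order, gave 0.061 (-0.56 to 0.68), and Grin1 gave -0.0036 (-0.38 to 0.38). The same contrast gave 0.11 (-0.31 to 0.53) for Grin2c in astrocytes and 0.014 (-0.44 to 0.47) for Grin3a in Sst interneurons. For BCAS averaged over TBI, Grin1, Grin2a and Grin2b in excitatory neurons gave -0.033, -0.026 and -0.026. These intervals are not adjusted for the number of tests, and they do not mark the smallest change the test could detect with 2 libraries a group. For TBI averaged over BCAS, estimates over the 90 pairs ran from -0.38 to 0.94, and none was called.

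By edgeR's quasi-likelihood test 0 of the 90 member pairs were called in each of the 8 contrasts, as were 0 of all 203735 pairs (0% called), and DESeq2 also called 0. At an unadjusted p under 0.05, edgeR had 1 member pair for TBI averaged over BCAS (0.785% of all pairs), 0 for BCAS averaged over TBI (0.687%), and 0 for the interaction (0.858%). Against control, TBI gave 3 (0.694%), BCAS 1 (0.779%) and BCAS+TBI 1 (0.706%). BCAS+TBI gave 0 against TBI (0.726%) and 0 against BCAS (0.887%). This fit had no term for the library set. Its shares of all pairs, from 0.687 to 0.887%, lay far below the share that a threshold of 0.05 would give with no effect. The test was therefore conservative, and a lack of calls does not show that no gene changed. The smallest p belonged to Grin2b in oligodendrocyte precursors, with 47.8 and 36.0 CPM in control, 72.8 and 67.9 in BCAS, 76.5 and 99.7 in TBI, and 91.1 and 75.4 in BCAS+TBI. The mean of Grin2b in this class, 70.9 CPM, was below those of oligodendrocytes (103 CPM) and microglia (121 CPM). All 4 libraries with TBI were above the 4 without, on 137 UMIs in all. This pair was picked by its p, and how many of all pairs split in this way was not counted. The log2 difference was 1.11 for TBI against control, 1.08 for BCAS+TBI against control and 0.70 for TBI averaged over BCAS (edgeR adjusted p = 1.00 for each), and it was -0.28 for the latter with mixtures kept. Grin3a in Vip interneurons had 78.8 and 126.0 CPM in control, 183.4 and 249.5 in BCAS, 219.2 and 95.3 in TBI, and 150.2 and 107.3 in BCAS+TBI, and BCAS against control gave 1.04 (edgeR adjusted p = 1.00). The other 2 were Grin2b in endothelial cells and Grin3a in Rorb neurons, both for TBI against control (1.2 and 1.61).

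Grin2b had a positive log2 difference for TBI averaged over BCAS in 20 of the 20 classes and families in which it was tested, from 0.011 in Pvalb interneurons to 0.76 in endothelial cells, with a median of 0.13 against a median of 0.0044 over all pairs. These classes come from the same 8 libraries and families contain their subtypes, so they are not separate observations. Within set 1 the mean of the 2 libraries with TBI exceeded that of the 2 without in 13 of 13 neuron classes, by 333 CPM in excitatory neurons. Within set 2 this mean was higher in 7 of 13, by 31.4 CPM in excitatory neurons, where BCAS+TBI 1 lay below control 2. The mean of Grin2a was also higher with TBI in 11 of 13 neuron classes within set 1, and in 5 of 13 within set 2. The counts for sets 1 and 2 were 2 and 8 for Grin1, 8 and 8 for Grin2c, 4 and 9 for Grin2d, and 6 and 7 for Grin3a. All genes were not counted in this way. The log2 difference of TBI averaged over BCAS was positive in 14 of 19 for Grin2a, 7 of 18 for Grin1, 4 of 4 for Grin2c, 5 of 12 for Grin2d and 7 of 16 for Grin3a. With the library set as a block, members with an unadjusted edgeR p under 0.05 rose to 6 of 90 for TBI averaged over BCAS, all higher, where 4.55% of all pairs passed, and to 11 of 90 for TBI against control, 10 of them higher (4.03%). The rise was not limited to TBI: there were 4 for BCAS averaged over TBI (3.59%), 9 for the interaction, 7 of them lower (5.1%), and 9 for BCAS against control, 6 of them higher (4.22%). BCAS+TBI gave 3 against control (3.81%), 7 against TBI, 6 of them lower (4.47%), and 4 against BCAS (5.51%). In that fit Grin2b gave 0.21 in upper-layer neurons and 0.15 in excitatory neurons (edgeR adjusted p = 1.00 for each), and no member was called in any contrast, where 1 to 28 of all 203735 pairs were. The lowest adjusted p of a member in that fit was 0.597, for the interaction of Grin3a in astrocytes (0.83, by edgeR).

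**Figure D5:**
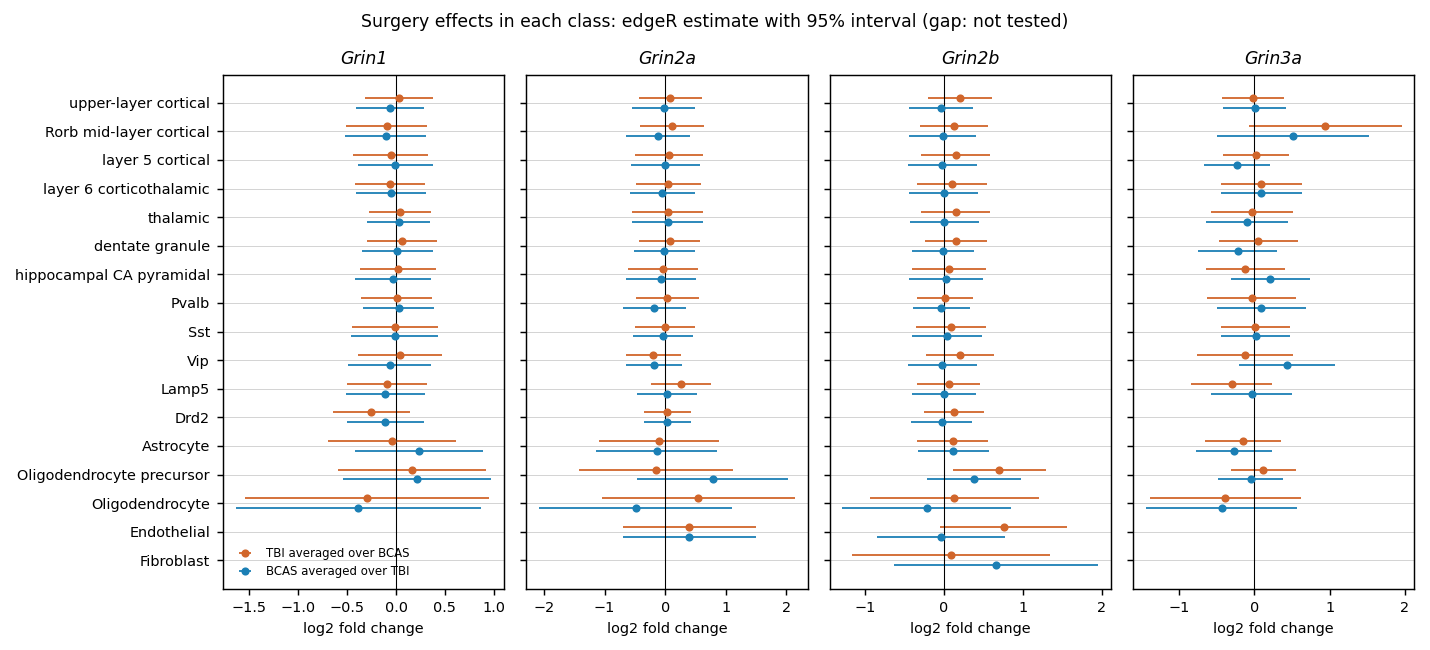
Log2 fold change (horizontal axis) for the average TBI effect (orange) and the average BCAS effect (blue), as edgeR estimates with 95% intervals, for 4 member genes in 17 classes (vertical axis); a gap means that the gene was not tested. Most intervals include 0, and the estimates of Grin2b for TBI lie at or to the right of 0, up to 0.76 in endothelial cells.

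Subunit shares were compared over libraries by exact two-sided permutation, 4 libraries with against 4 without each surgery, where the smallest p is 0.0286. Of 138 tests none passed after adjustment (smallest adjusted p = 1), and 2 had that smallest unadjusted p, both for BCAS. In inhibitory neurons Grin2d made up 2.62 and 2.32% of Grin2 UMIs in BCAS and 2.38 and 2.50% in BCAS+TBI, against 2.28 and 2.04% in control and 2.18 and 1.94% in TBI. All 4 libraries with BCAS were thus above the 4 without, by 0.347 percentage points (exact permutation p = 0.0286, adjusted p = 1). The other was the Grin2c share in layer 6 neurons, 0.0404 against 0.0118% (exact permutation p = 0.0286, adjusted p = 1). It rests on few UMIs, since Grin2c had a mean of 0.83 CPM in that class and control 1 had none. The Grin2a share of excitatory neurons was 46.3% ± 4.05 with and 47.6% ± 3.45 without TBI (SD, n = 4 each; exact permutation p = 0.543), and 47.0 and 46.9% with and without BCAS.

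Genes whose products bind or regulate the receptor were followed as 6 lists with 76 genes: scaffolds, kinases and phosphatases, auxiliary and trafficking proteins, co-agonist supply, calcium-dependent effectors, and transcriptional regulators of subunit genes. For the surgeries 0 of 1230 pairs of 74 tested genes and a class were called by edgeR or DESeq2. With the library set as a block edgeR called 3, each in 1 contrast, which are named here after their values were seen: Camk2d in dentate granule neurons (interaction, -1.47, adjusted p = 0.0491), Prkca in Vip interneurons (TBI against control, 1.08, adjusted p = 0.0427) and Dlgap2 in oligodendrocyte precursors (BCAS+TBI against TBI, -2.50, adjusted p = 0.00991). Without the block, for TBI averaged over BCAS 12 pairs (0.976%, against 0.785% of all pairs) and for BCAS averaged over TBI 7 pairs (0.569%, against 0.687%) had an unadjusted p under 0.05, and list medians lay between -0.026 and 0.043 on the log2 scale. The smallest unadjusted edgeR p for TBI belonged to Dlg4, the gene of the scaffold PSD-95, in Drd2 neurons (-0.77), Dlg2 in choroid plexus (-0.81) and the kinase gene Prkca in Vip interneurons (0.59). For BCAS they belonged to the scaffold gene Dlgap2 in oligodendrocyte precursors (-1.31), the kinase gene Camk2a in astrocytes (0.86) and Rasgrf2 in striatal neurons (0.50), and the edgeR adjusted p of all 6 was 1.00.

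Between classes, list genes are given as counts called, beside the share of all genes called in that pair, and the lists themselves were not tested. The pairs below were picked from 66 combinations of a list and a class pair after their values were seen. In inhibitory against excitatory neurons (56.2% of all genes called) 12 of 17 scaffold genes were lower and 3 higher (median log2 difference -0.61, against 0.050 over all genes). In Pvalb against Sst interneurons (36.1%) 5 of 17 were higher and 5 lower (-0.039, against 0.0072). In excitatory neurons against astrocytes (68.5%) 16 of 17 scaffold genes were higher and none lower (median 1.83, against 0.058), and 7 of 10 co-agonist genes, which supply glycine and D-serine, were lower and 1 higher (median -1.95). In oligodendrocyte precursors against oligodendrocytes (60.5%) 9 of 11 scaffold genes were higher and 1 lower (0.82, against -0.074). Of the 4 members tested in that pair, Grin1 and Grin3a were called higher, and Grin2a and Grin2b lower. The Grin1 difference turned to -0.58 with mixtures kept. The mean of Grin1 in the precursors, 49.2 CPM, did not differ from that in endothelial cells, 46.7 CPM, in the exact permutation test. In thalamic against upper-layer neurons (59.9%) 7 of 11 calcium-dependent effector genes were lower and 3 higher (-0.62, against 0.028). Rasgrf2, on that list, was also a marker used to assign upper-layer neurons, so its direction here follows from the assignment.

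Across the 21 classes Grin1, Grin2a and Grin2b followed each other, with Pearson correlations of mean log2(CPM + 1) of 0.94 for Grin1 with Grin2a, 0.96 for Grin1 with Grin2b and 0.95 for Grin2a with Grin2b. Grin2c correlated with none of the others beyond 0.34, and Grin2d and Grin3a correlated at 0.71. These are descriptions over classes that share 8 libraries. Among 13614 genes, those most like Grin1 were Actl6b (0.98), a neuronal chromatin remodelling subunit, Celf3 (0.98) and the scaffold gene Dlgap3 (0.98). Most like Grin2a were Gm16105 (0.96), the synaptic vesicle calcium sensor gene Syt1 (0.96) and Gm12064 (0.96). Most like Grin2b were Gm14330 (0.98), 5330417C22Rik (0.98) and A230006K03Rik (0.98). Gm14330 lies on the opposite strand within the Grin2b span and had counts of its own, and reads given to the wrong strand were not looked for. Grin2c was most like Etnppl (0.87), Gm40578 (0.86) and Gdpd2 (0.85), all highest in astrocytes, and Grin2d like Gprasp2 (0.91), Nup188 (0.91) and Kcnmb2 (0.90), all highest in interneuron classes. Nearest to Grin3a were Luzp2 (0.87), Tmem255a (0.87) and Dner (0.86), and to Grin3b 1110015O18Rik (0.88), the precursor proteoglycan gene Vcan (0.86) and Scel (0.86), though Grin3b itself rests on few UMIs. Kcnmb2 and Vcan are also on the marker lists.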

How the data were processed

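Single-nucleus RNA was measured with the Chromium 3′ assay in 8 libraries. The authors deposited raw UMI counts per gene and barcode, and per the file headers Cell Ranger 7.0.0 produced them, while the submitters' processing notes name Seurat and the GRCm38 (mm10) build. The annotation release and the setting for introns are not given in the sources used here.

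Nuclei were assigned to 12 families and 13 subtypes by the Poisson likelihood of marker counts, with mixtures of 2 classes set aside, a procedure chosen after the data were seen. No doublet caller was run. Raw counts were summed per library and class, and every class whose smallest library had 20 or more nuclei entered the surgery test in edgeR 4.0.16 (quasi-likelihood test, TMM, minimum count of 10, all 4 groups in 1 fit, R 4.3.3), adjusted by Benjamini-Hochberg over all genes and classes of a contrast. Class pairs had the library as a term. Class levels were compared by exact sign-flip permutation over 8 libraries (two-sided, 256 assignments, smallest p 0.0078125, 1561 tests adjusted together), on log2(CPM + 1). Shares needed at least 50 UMIs in every library. Alternatives included DESeq2 1.42.0, other filters, gates and depths, blocks, and each library left out. Scripts were tested on simulated data with known changes. Same-numbered libraries correlated from -0.846 to 0.800 in their deviations from the group means, so the numbers were not taken as pairs.

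All 7 members are named. Of partner genes, those called for a surgery are named, or else the 3 with the smallest p for each averaged contrast, and between classes only counts are given, and for each member the 3 genes most correlated across classes among those with at least 20 CPM in 1 class. Members and lists were chosen with earlier results of these data known.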

Additional observations from a re-analysis of the deposited data

How the results depend on the processing

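No member gene was called for any surgery contrast under any alternative run, DESeq2, every library left out in turn and mixtures kept included. Over all genes, 18 to 66 of 537196 pairs a contrast were called without a filter on low counts and 1 to 28 of 203735 with the library set block, and 0 under the others. The replicate block, which uses a number that does not pair the libraries, called 0 member pairs, with 2 and 3 pairs at an unadjusted p under 0.05 for TBI averaged over BCAS and for TBI against control, and turned Grin1 in excitatory neurons to 0.0013. Under the library set block 1 partner pair each was called for the interaction (Camk2d in dentate granule neurons, -1.47), for TBI against control (Prkca in Vip interneurons, 1.08) and for BCAS+TBI against TBI (Dlgap2 in oligodendrocyte precursors, -2.50), named after their values were seen.

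Some surgery estimates changed sign. Without any filter on low counts Grin3a in Sst interneurons for TBI was -0.011 and Grin2b between Drd1 and Drd2 neurons was -0.00095. Grin1 in excitatory neurons for TBI was 0.0022 without nuclei of high UMI count. With mixtures kept, an alternative chosen after seeing the data, Grin1 in excitatory neurons was 0.012 and Grin2b in oligodendrocyte precursors, 0.70 with mixtures set aside, was -0.28 for TBI. Leaving out each library in turn gave, for TBI, -0.085 to 0.076 for Grin1, -0.076 to 0.22 for Grin2a (excitatory neurons), -0.023 to 0.27 for Grin2c in astrocytes and -0.086 to 0.095 for Grin3a in Sst interneurons. For BCAS in excitatory neurons it gave -0.11 to 0.051 for Grin1, -0.19 to 0.14 for Grin2a and -0.10 to 0.054 for Grin2b. Between classes it gave -0.11 to 0.023 for Grin1 in Lamp5 against Pvalb and -0.0028 to 0.079 for Grin2b in Drd1 against Drd2 neurons.

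Between classes, members called moved from 3 to 5 without a filter and to 1 with thinned nuclei for Lamp5 against Pvalb, from 4 to 2 with thinned nuclei for Pvalb against Sst, and from 0 to 2 with mixtures kept for Drd1 against Drd2. Upper-layer against layer 6 neurons went from 1 to 2 without nuclei of high UMI count and with mixtures kept (1 to 2 over libraries left out, 2 without TBI 2 or control 1). Oligodendrocyte precursors against oligodendrocytes went from 4 to 2 without nuclei of high UMI count and to 1 with thinned nuclei (2 to 4 over libraries left out, 2 without BCAS 2). Grin2a between upper-layer and layer 6 neurons was 0.052 with a stricter gate, 0.060 with thinned nuclei and 0.017 with mixtures kept, and Grin1 between Drd1 and Drd2 neurons was 0.024 with thinned nuclei. With mixtures kept, Grin2b between Drd1 and Drd2 neurons was -0.16, Grin3a between dentate granule and CA neurons 0.067, Grin1 and Grin2b between astrocytes and oligodendrocytes -0.99 and -0.86, and Grin1 between oligodendrocyte precursors and oligodendrocytes -0.58. In the order of classes, pairs that differed fell from 67 to 39 for Grin2c with thinned nuclei, and for Grin3b went from 3 to 0 with thinned nuclei, to 0 with a stricter gate and to 20 with mixtures kept. The cause was not tested, except that thinning leaves fewer UMIs. Of the counts that answer a comparison, 435 alternative values stayed the same and 18 moved. Of those for single genes, 969 stayed the same, 40 changed sign, 21 lost a call and 15 gained one.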
